A study of Mus musculus with 12 samples.

Results

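The data described here are those of E4, a hit compound known in the labels only by that code, on 1 array of BV2 cells. E4 was set against the median of 9 other arrays of activated cells, with the non-activated control as baseline, and 11 of the 12 arrays of the series were used. E4 was chosen by the authors' processed probe intensities, raised to 50 and put on a log2 scale, because most of its large differences ran upward. The differences between E4 and the 9 arrays are therefore a description and carry no test. Each condition was on 1 array, so no replicate spread exists, and how precise any value below is depends on the small number of arrays.

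BV2 is an immortalised mouse microglial line, so all arrays come from 1 line and not from separate animals. E4 cells were activated with 1 µg/ml lipopolysaccharide (LPS) and 10 ng/ml interferon-γ (IFN-γ) and kept with the compound for 4 h. The 9 arrays were the compounds E5, E14, E18, E19, E20, E21, E23 and E33 and an activated control, all with the same stimuli, the control with no compound. The non-activated control was a 4 h culture with neither stimulus nor compound. E29, a further compound on activated cells, was not part of the set of 9. The labels state no dose, vehicle or chemical identity for any compound, and nothing says that arrays came from separate cultures.

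LPS acts through Toll-like receptor signalling to NF-κB, and together with IFN-γ it turns microglia to cytokine, chemokine and nitric oxide production. Of the 22 genes with a probe at least 2-fold higher on E4, 6 were on a list of another programme, the amino acid or integrated stress response. The list held 20 of the 7293 genes measured and was chosen with earlier results of these data known. In that response, kinases that sense amino acid shortage, unfolded proteins, haem shortage or double-stranded RNA phosphorylate the translation initiation factor eIF2α, and general translation slows while the transcription factor ATF4 is made. ATF4 pairs with C/EBP-family proteins and turns on genes of amino acid synthesis and import, tRNA charging, glutathione turnover and mTORC1 inhibition.

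The array carried 25697 probes, of which 10548 were above 50 on at least 1 of the 10 activated arrays and were compared. Between 8538 and 9493 probes per array had a detection p-value under 0.01, with 9016 on E4. Among 10 microglial markers on the array, 6 (Aif1, Tyrobp, Trem2, Ptprc, Spi1 and Fcgr3) were detected on all 11 arrays, and P2ry12 and Tmem119 on none. The summed microglial marker signal was 9490 on E4, 8742 to 9851 on the 9 arrays and 9786 on the non-activated control. Of 17 markers of astrocytes, neurons, oligodendrocytes, T cells and fibroblasts, 16 were detected on no array and Mog on some, and their summed signal was 224 on E4, 189 to 338 on the 9 arrays and 203 on the non-activated control.

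On E4, 27 probes stood at least 2-fold above the median of the 9 arrays, which is 0.256% of the probes compared, and 4 stood at least 2-fold below it, which is 0.0379%. Of these, 23 probes were above all 9 arrays (0.218%) and 4 were below all 9 (0.0379%). The 27 higher probes named 22 genes, with 2 probes for Cd207, and 4 of them had no gene name. At a 1.5-fold limit the counts were 158 higher probes (1.5%) and 63 lower probes (0.597%). Without a limit of size, 990 probes were above all 9 arrays (9.39%) and 914 were below all 9 (8.67%), so the excess of higher values lay among the large differences.

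The probes nearest the 2-fold limit were Cd207 at 1.01, C1s1 at 1.04 and Mib2 at 1.04 on the log2 scale just inside it, and Ccnd1 at 0.99, Mustn1 at 0.96 and Flrt3 at 0.96 just outside it. On the lower side, unnamed probes at -1.02 and -1.03 lay inside, and unnamed probes at -0.97 and -0.96 and Mocos at -0.94 lay outside.

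The predominance of higher probes depended on what E4 was compared with. Against the activated control array alone, 47 probes were at least 2-fold higher on E4 (0.446%) and 37 were at least 2-fold lower (0.351%), so that 56.0% of these probes were higher, against 87.1% with the median of the 9 arrays. Of the 27 higher probes, 25 were also at least 2-fold above the activated control, as all 4 lower probes were at least 2-fold below it. The activated control is among the 9 arrays that set the calls, so these counts are no separate check. The floor of 50 also favours higher calls, because a 2-fold lower value can be seen only where the median of the 9 arrays is at least 100. That held for 7504 of the 10548 probes, and among those 14 were higher on E4 (0.187%) and 4 were lower (0.0533%).

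Other arrays, each set against the median of its own 9 others, also gave more higher than lower probes. The activated control had 24 higher and 6 lower probes (0.228% and 0.0569%), E5 had 23 and 13 (0.218% and 0.123%), and E20 had 19 and 11 (0.18% and 0.104%). E21 had 9 higher and 0 lower probes (0.0853% and 0%), E23 had 3 and 0 (0.0284% and 0%), and E18 had 2 and 1 (0.019% and 0.00948%). E33 had 57 higher and 56 lower probes (0.54% and 0.531%), E19 had 32 and 49 (0.303% and 0.465%), and E14 had 0 and 4 (0% and 0.0379%). These comparisons share arrays, and whether the split on E4 differs from those on the other arrays was not tested, since each condition has 1 array.

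**Figure D1:**
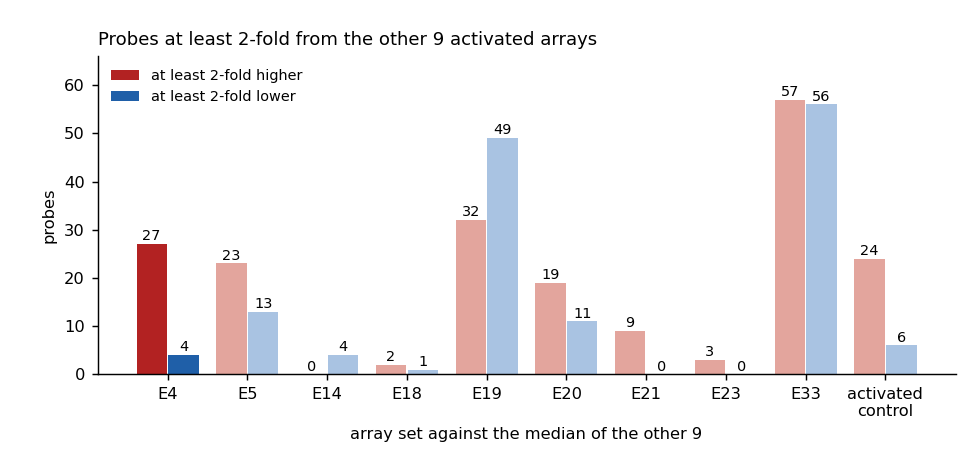
Number of probes (vertical axis) at least 2-fold above (left bar) and below (right bar) the median of the 9 other activated arrays, for E4 and for each of those 9 arrays in turn (horizontal axis). E4 had 27 higher and 4 lower probes, the activated control 24 and 6, and E33 57 and 56.

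Promoters of the genes higher on E4 and of the ATF4 list were read for the core of the C/EBP-ATF composite element, the DNA site through which ATF4 dimers are known to act. The letters searched were TGATGNAA on both strands, from 250 bases before to 50 after each RefSeq start (GRCm38.p6), and the motif was chosen after the expression values were seen. Windows that hold it are printed here for 3 genes with a probe at least 2-fold higher (Chac1, Jdp2 and Aqp9) and for Asns, an ATF4 list gene with a smaller difference, as the 250 bases before the start, in the direction of the gene, with the motif in capitals. They are Chac1 at chr2:119350992-119351241 (plus strand), Jdp2 at chr12:85599166-85599415 (plus strand), Aqp9 at chr9:71162634-71162883 (minus strand) and Asns at chr6:7693210-7693459 (minus strand).
Chac1: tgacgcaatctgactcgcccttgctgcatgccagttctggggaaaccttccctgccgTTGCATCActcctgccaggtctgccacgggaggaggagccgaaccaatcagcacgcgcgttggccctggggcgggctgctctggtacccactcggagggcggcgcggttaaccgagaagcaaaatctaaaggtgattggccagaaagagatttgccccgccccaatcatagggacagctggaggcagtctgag
Jdp2: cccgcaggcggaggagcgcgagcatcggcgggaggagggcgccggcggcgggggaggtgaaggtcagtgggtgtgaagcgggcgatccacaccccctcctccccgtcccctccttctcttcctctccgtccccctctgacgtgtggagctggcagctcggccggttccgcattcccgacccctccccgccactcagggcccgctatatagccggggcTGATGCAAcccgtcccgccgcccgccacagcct
Aqp9: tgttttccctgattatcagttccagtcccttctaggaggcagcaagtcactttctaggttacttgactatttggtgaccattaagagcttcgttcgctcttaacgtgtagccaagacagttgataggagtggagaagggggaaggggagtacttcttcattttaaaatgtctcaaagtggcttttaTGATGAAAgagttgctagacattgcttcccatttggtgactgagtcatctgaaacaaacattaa
Asns: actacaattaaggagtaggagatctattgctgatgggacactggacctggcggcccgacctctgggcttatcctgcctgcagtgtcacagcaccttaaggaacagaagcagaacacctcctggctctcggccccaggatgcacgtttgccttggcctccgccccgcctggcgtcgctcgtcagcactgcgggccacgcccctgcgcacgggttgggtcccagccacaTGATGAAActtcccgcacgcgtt

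The motif began 193 bases upstream of the start in Chac1, where it reads TTGCATCA because it lies on the opposite strand. It began 33 bases upstream in Jdp2 as TGATGCAA, 64 bases upstream in Aqp9 and 23 bases upstream in Asns, both as TGATGAAA. Jdp2 and Aqp9 have more than one listed start, and the window with the match is the one shown. Of the 22 genes with a probe at least 2-fold higher on E4, 20 had a promoter in the table and 5 of these held the motif (25%): Aqp9, Chac1, Jdp2, Slc1a4 and Trib3. Of the 18 measured ATF4 list genes with a promoter in the table, 5 held it (27.8%): Asns, Atf3, Chac1, Nupr1 and Trib3. The motif was in 4.51% of the 27025 genes with a promoter in the table, and in 3% of the 6037 such genes measured here. The palindromic cAMP response element TGACGTCA, searched in the same windows, was in 0 of the 20 and 0 of the 18 genes, in 2.03% of all genes and in 3.86% of the genes measured. A match describes letters in a window and is not evidence of binding, and a missing match says only that these letters are not in the window.

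Among stress regulators, Sesn2, which encodes a leucine-sensing inhibitor of mTORC1, showed the largest difference of any named gene. Its probe ILMN_2948945 read 439 on E4, against 83.3 on the lowest of the 9 arrays, 117 at their median and 205 on the highest, and 58.0 on the non-activated control. The E4 value was 3.75-fold above the median, a log2 difference of 1.91, and the activated control was the lowest and E19 the highest of the 9. Another Sesn2 probe differed by 0.95. Ddit4, which encodes REDD1, another inhibitor of mTORC1, read 124 on E4, against 25.4, 33.2 and 55.1 (lowest, median and highest) on the 9 arrays and 49.5 on the non-activated control. Only 1 of the 9 arrays detected Ddit4, so its difference is a bound: with undetected values raised to the lowest detected value of their array, E4 was at least 2.24-fold higher. E29, outside the set of 9, read 158 for Ddit4, above E4.

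Trib3, a pseudokinase that binds ATF4, read 279 on E4, against 82.3, 91.4 and 152 on the 9 arrays and 42.3 on the non-activated control, a 3.06-fold difference. Ddit3, which encodes the transcription factor CHOP, read 356 on E4, against 157, 187 and 268 on the 9 arrays and 146 on the non-activated control, a log2 difference of 0.93, and another Ddit3 probe differed by 0.48. In both genes E4 stood clear of all 9 arrays. Atf4 itself differed less, with 3516 on E4, against 2006, 2551 and 3079 on the 9 arrays and 1489 on the non-activated control (log2 difference 0.46). ATF4 is known to be controlled largely at translation, which these arrays do not measure. Its relative Atf5 differed by 0.50, while Atf3 read 3083 on E4 within the range of the 9 arrays (2393, 2874 and 3165) and 749 on the non-activated control. Cebpb, a dimer partner of ATF4, was also within their range, at a log2 difference of 0.17.

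Chac1, a γ-glutamylcyclotransferase that degrades glutathione, read 556 on E4 (probe ILMN_2617468), against 74.1 on the activated control, which was the lowest of the 9 arrays, 179 at their median and 353 on E19, the highest. The non-activated control read 54.9. E4 was 3.10-fold above the median, and the 9 arrays themselves spread over a wide range for this gene. Stc2, a secreted glycoprotein of the stress response, read 167 on E4, against 16.6, 52.6 and 76.7 on the 9 arrays and 67.9 on the non-activated control. Only 2 of the 9 arrays detected Stc2, and E4 was at least 2.76-fold higher. Nupr1, a small stress-induced chromatin protein, read 2718 on E4, barely above the highest of the 9 arrays (1611, 1961 and 2696), and 418 on the non-activated control.

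**Figure D2:**
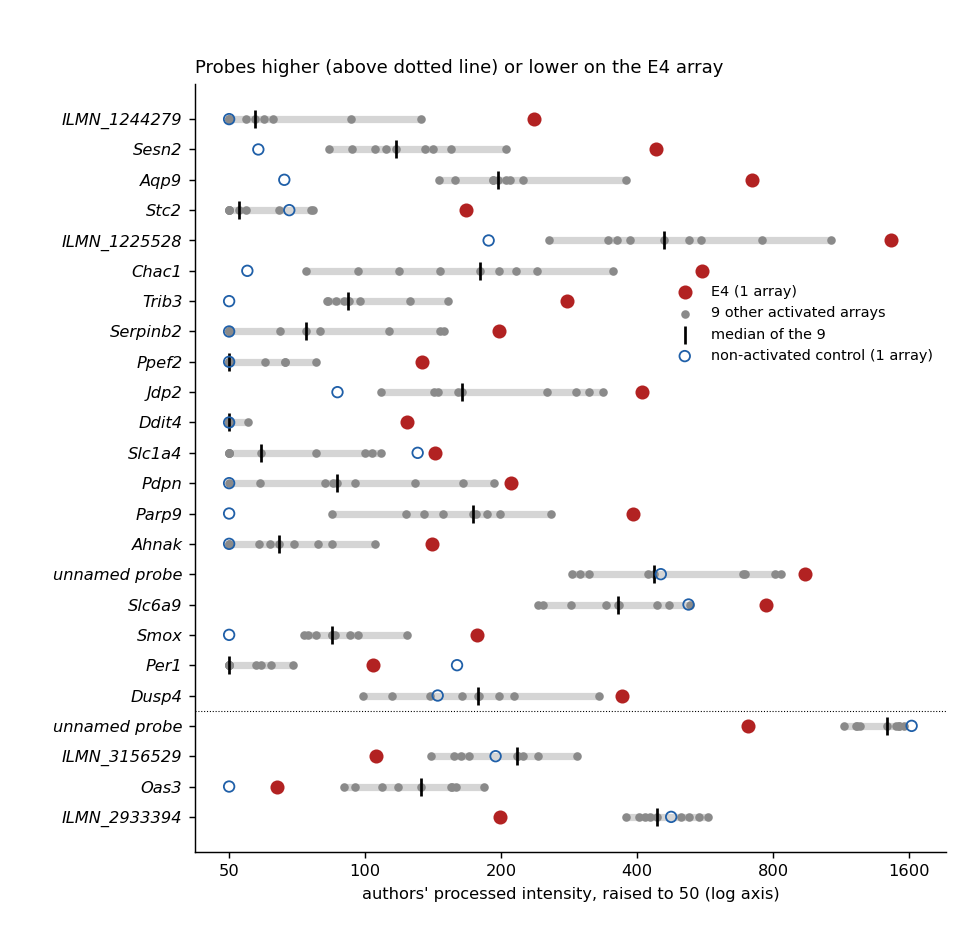
Authors' processed intensity, raised to 50, on a log axis (horizontal) for the 20 probes highest on E4 (above the dotted line) and the 4 lowest (below it) among those outside the range of the 9 arrays, 1 probe per gene (vertical). Red points are E4, grey points and bars the 9 other activated arrays and their range, black ticks their median and open circles the non-activated control. E4 lies outside the grey bar in each line, by most for Sesn2, Aqp9, Stc2, Trib3 and Ddit4 among named genes.

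Of the amino acid transporters described here, Slc6a9 and Slc1a4 passed 2-fold on E4, Slc7a5 passed 1.5-fold and Slc3a2 passed neither. Slc6a9, the glycine transporter GlyT1, read 770 on E4, against 242, 363 and 524 on the 9 arrays and 519 on the non-activated control, a 2.12-fold difference. Slc1a4, a transporter of alanine, serine and cysteine, read 143 on E4, against 22.9, 58.9 and 108 on the 9 arrays and 131 on the non-activated control. It was detected on 4 of the 9 arrays, so E4 was at least 2.09-fold higher. Slc7a5, the light chain of the leucine transporter LAT1, read 3664 on E4, against 1854, 2246 and 2903 on the 9 arrays and 3545 on the non-activated control (log2 difference 0.71), and its heavy chain Slc3a2 differed by 0.38. For Slc6a9, Slc1a4 and Slc7a5 the median of the 9 arrays lay below the non-activated control and E4 lay above both.

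Of the enzymes of amino acid and one-carbon metabolism on the ATF4 list, Asns, Mthfd2 and Shmt2 passed 1.5-fold, and Phgdh, Psat1 and Aldh1l2 did not. Asns, asparagine synthetase, read 5333 on E4, against 2777, 3199 and 3610 on the 9 arrays and 3614 on the non-activated control, and its 3 probes differed by 0.55 to 0.83 on the log2 scale. Mthfd2, a mitochondrial folate enzyme, read 974 on E4, against 440, 543 and 740 on the 9 arrays and 404 on the non-activated control (0.84). Shmt2, mitochondrial serine hydroxymethyltransferase, read 408 on E4, against 212, 250 and 298 on the 9 arrays and 329 on the non-activated control (0.70). Another Shmt2 probe differed by 0.45. For Asns, Mthfd2 and Shmt2, E4 exceeded every one of the 9 arrays. The serine synthesis enzymes Phgdh and Psat1 differed by 0.33 and 0.29, and Aldh1l2, another mitochondrial folate enzyme, by -0.10.

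Over the whole list of ATF4 and amino acid response genes, 24 genes were listed and on the array and 20 were measured, that is, above 50 on at least 1 activated array. The list and the other lists below were chosen with earlier results of these data known, and 6 of its genes are among those that chose E4. At 2-fold, 6 of the 20 were higher on E4 and 0 lower, against 0.261% and 0.0137% of the 7293 genes measured. At 1.5-fold, 11 of the 20 (55%) were higher and 0 lower, against 1.41% and 0.617% of those genes. The list's median log2 difference was 0.71, against 0 over all genes. E4 was above all 9 arrays in 16 of the 20 genes, against 9.28% of all genes, below all 9 in 0, against 8.61% of all genes, and above their median in 19, against 45.6% of all genes. Psph, Vldlr, Fgf21 and Pck2 were not measured. Against the activated control alone 14 of the 20 were at least 1.5-fold higher and 0 lower, against 2.73% and 2.28% of all genes, and the list's median was 0.88.

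The same list was also read on each other array against its own 9 others, with shared arrays between these comparisons. Its median log2 difference was 0.71 on E4, 0.24 on E33, 0.16 on E19, 0.049 on E14, -0.0030 on E5, -0.029 on E18, -0.090 on E21, -0.11 on E20, -0.12 on E23 and -0.26 on the activated control. At 1.5-fold, 11 genes of the list were higher on E4, 2 on E19, 1 on E33 and 0 on each of the other 7 arrays. The activated control was the lowest of the 10 activated arrays in 10 of the 20 genes, against 10.5% of all genes. In 4 of the 20 genes the median of the 9 arrays was at least 2-fold above the non-activated control, and in 0 it was at least 2-fold below. Among the probes compared these shares were 7.62% and 5.87%. That median rests mostly on arrays with a compound. Sesn2 and Chac1 were among the 4, but on the activated control they read only 83.3 and 74.1. The non-activated control read 58.0 and 54.9 for them, so with the stimuli alone both were less than 2-fold higher.

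**Figure D3:**
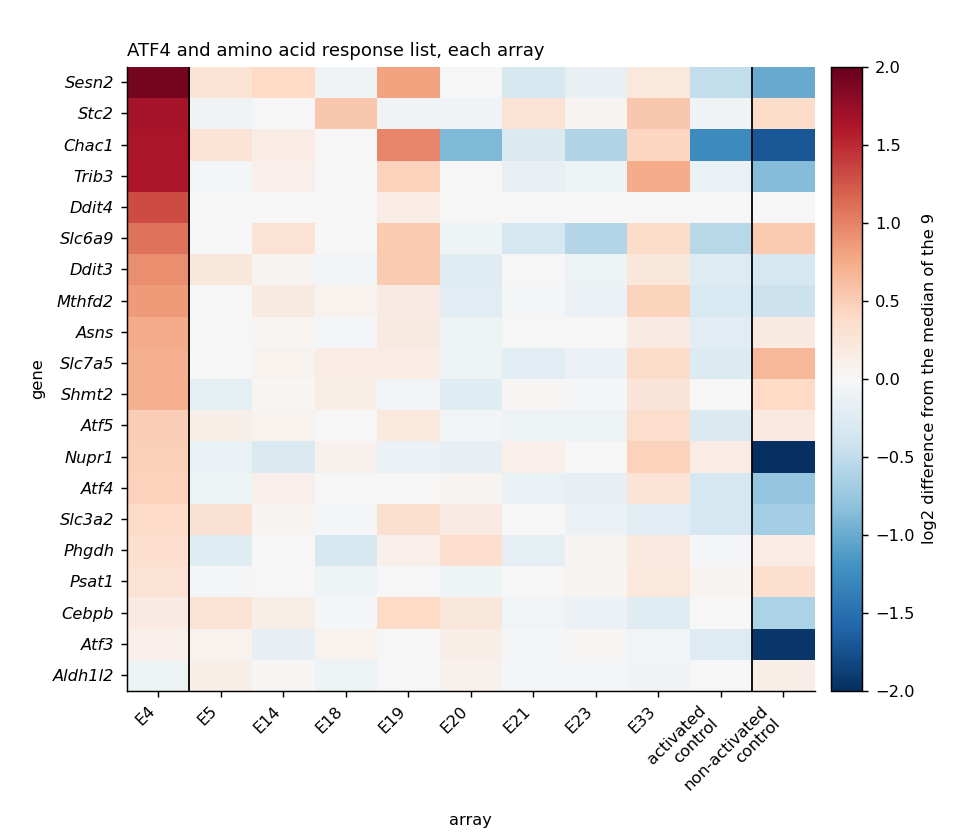
Log2 difference from the median of the 9 arrays (colour, limited to values between -2 and 2, so that the darkest blue is a bound) for the 20 measured genes of the ATF4 and amino acid response list (rows) on each array (columns). The E4 column at the left is red for 19 of 20 genes, with Sesn2 at 1.91 and Aldh1l2 at -0.10, while the activated control is mostly blue, with Chac1 the lowest of the 9 arrays.

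Of the 16 cytosolic aminoacyl-tRNA synthetases measured, which load amino acids onto tRNA and were added as a list after values were seen, 2 were at least 1.5-fold higher on E4 and 0 lower, against 1.41% and 0.617% of all genes. Mars1, for methionine, read 564 on E4, against 278, 332 and 398 on the 9 arrays and 537 on the non-activated control (0.76). Iars, for isoleucine, read 1920 on E4, against 1088, 1239 and 1561 on the 9 arrays and 1569 on the non-activated control (0.63). The list's median difference was 0.31, and E4 was above all 9 arrays in 12 of the 16, against 9.28% of all genes. Tars and Sars differed by 0.56 and 0.50, and Qars and Farsa by -0.16 and -0.14.

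Outside the amino acid response, Aqp9, an aquaglyceroporin that passes water, glycerol and urea, showed the next largest difference after Sesn2. It read 718 on E4 (probe ILMN_1214634), against 146 on E23, 197 at the median and 378 on E33 among the 9 arrays, and 66.2 on the non-activated control, a 3.65-fold difference. Jdp2, a basic leucine zipper repressor of AP-1, read 409 on E4, against 109, 164 and 337 on the 9 arrays and 86.8 on the non-activated control (1.32). Dusp4, a phosphatase that inactivates MAP kinases, read 370 on E4 with its probe of largest difference, against 98.7, 178 and 330 on the 9 arrays. The non-activated control read 145, and the 3 Dusp4 probes differed by 0.88 to 1.06. The brightest Dusp4 probe read 1271 on E4, within the range of the 9 arrays, with 1279 on E19. Per1, a circadian clock repressor also induced by glucocorticoids and cAMP, read 104 on E4, against 25.5, 49.4 and 69.3 on the 9 arrays and 160 on the non-activated control. It was detected on 4 of the 9 arrays, which makes the difference at least 1.72-fold.

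Serpinb2, plasminogen activator inhibitor 2, read 198 on E4, against 22.3, 74.0 and 149 on the 9 arrays. Pdpn, the membrane mucin podoplanin, read 210 on E4, against 37.0, 86.8 and 192 on the 9 arrays. The lowest processed value, 10.0, was recorded for both genes on the non-activated control. In both, E21 was the highest of the 9 arrays and lay close to E4 for Pdpn. Parp9, an interferon-inducible member of the ADP-ribosyltransferase family, read 392 on E4, against 84.4, 173 and 257 on the 9 arrays and 15.5 on the non-activated control (1.18). Smox, spermine oxidase, differed by 0.37 to 1.07 over 5 probes, and its most different probe read 177 on E4 and 164 on E29. Ahnak, a large scaffold protein, differed by 1.13 with 1 probe and by -0.20 with the other. Ppef2, a protein phosphatase with EF-hand domains, read 133 on E4, was detected on 3 of the 9 arrays and was at least 2.12-fold higher.

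The largest difference of all belonged to the unnamed probe ILMN_1244279, with 237 on E4, against 28.4, 57.1 and 133 on the 9 arrays and 10.0 on the non-activated control, at least 3.79-fold. The unnamed probe ILMN_1225528 read 1456 on E4, against 255, 459 and 1072 on the 9 arrays and 188 on the non-activated control, a 3.17-fold difference. All 27 higher probes were detected on E4, and 6 of them were detected on fewer than 5 of the 9 arrays. A further 4 of the higher probes lay within the range of the 9 arrays and so outside the rule for named genes. Among them, chosen after their values were seen, Arl11, an ARF-like GTPase, read 424 on E4 but 460 on E33, and Cd207, the C-type lectin langerin, read 370 on E4 but 715 on E21.

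Only 4 probes were at least 2-fold lower on E4, and 1 had a gene name. Oas3, an interferon-induced synthetase of 2′-5′-oligoadenylates, read 63.9 on E4, against 89.7, 133 and 183 on the 9 arrays and 10.0 on the non-activated control (-1.06), while another Oas3 probe differed by 0. The unnamed probe ILMN_2933394 read 199 on E4, against 377, 443 and 574 on the 9 arrays and 475 on the non-activated control (-1.16). The unnamed probe ILMN_3156529 read 106 on E4, against 140, 217 and 295 on the 9 arrays and 194 on the non-activated control (-1.03).

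To place E4 beside the response to activation, each probe was classed by the median of the 9 arrays against the non-activated control. Of 10853 probes, 804 were at least 2-fold higher after activation (7.41%) and 659 at least 2-fold lower (6.07%). Of the 27 probes higher on E4, 7 were induced by activation (25.9%), 17 were in neither class (63.0%) and 3 were repressed (11.1%), against 7.62%, 86.5% and 5.87% of the probes compared. The induced ones were Sesn2, Aqp9, Chac1, Parp9, Lipn, 1 Cd207 probe and ILMN_1225528, and the repressed ones were Arl11, Per1 and Slc1a4. This class rests mostly on arrays with a compound. On the activated control alone Sesn2 read 83.3, Chac1 74.1 and ILMN_1225528 255. The non-activated control read 58.0, 54.9 and 188, so these probes were less than 2-fold higher with the stimuli alone. The median of the 9 arrays enters both differences. With the class set by the activated control and E4 set against the 8 other compounds, the counts were 5 induced, 16 in neither class and 4 repressed. The E4 difference and the class then shared no array. The shares of all probes compared were not counted for this class, so these counts have no background beside them.

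**Figure D4:**
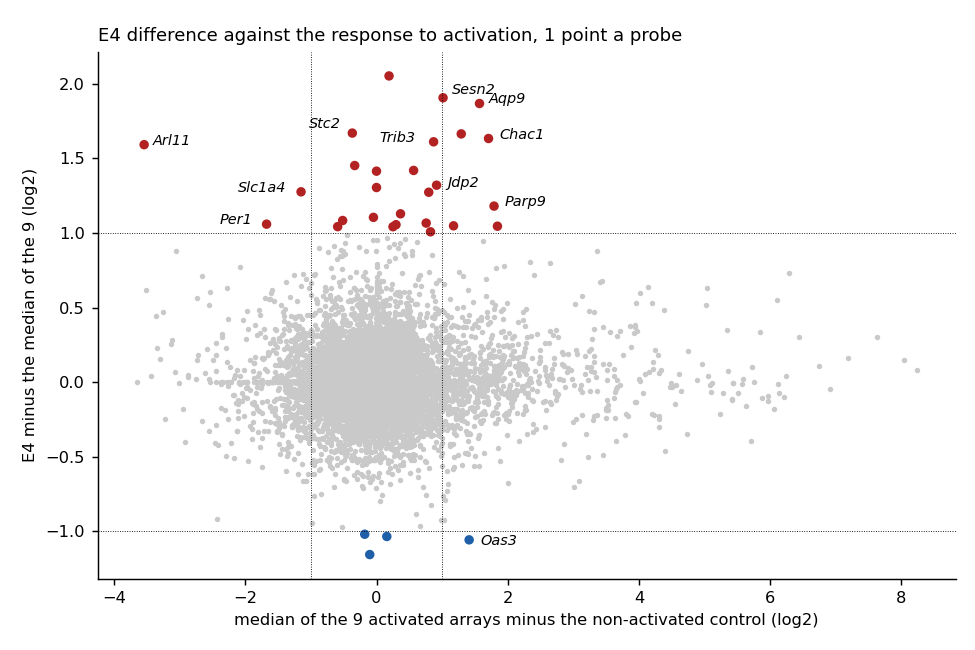
Log2 difference of E4 from the median of the 9 arrays (vertical axis) against the log2 difference of that median from the non-activated control (horizontal axis), 1 point for each of the 10548 probes compared. Red points are the 27 probes at least 2-fold higher on E4 and blue points the 4 lower ones; dotted lines mark 2-fold. Most red points lie between the vertical lines. Among genes strongly induced by activation, Cxcl10 and Il1b lie at 0.082 and 0.16 on the vertical axis, and Il1a lies at 0.73.

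Of the 9 readout genes, Nos2 alone reached 1.5-fold between E4 and the median of the 9 arrays. Tnf read 7064 on E4, against 5804, 6784 and 7386 on the 9 arrays and 342 on the non-activated control (log2 difference 0.058). Cxcl10 read 15883 on E4, against 10844, 15008 and 15955 on the 9 arrays and 28.9 on the non-activated control (0.082). Ccl2 differed by 0.082, Il1b by 0.16, Ptgs2 by 0.16, Il6 by 0.34 and the co-stimulatory receptor Cd40 by -0.13 with their brightest probes, each within the range of the 9 arrays. A dimmer Cd40 probe differed by -0.50 and was below all 9 arrays, with 329 on E4, against 350 to 619 on the 9 arrays. Nos2, inducible nitric oxide synthase, read 1219 on E4, against 376 on E19, 806 at the median and 1282 on E18 among the 9 arrays, and 28.1 on the non-activated control (0.60). The activated control read 1109 for Nos2, and E4 differed from it by 0.14. Actb, a reference transcript, differed by 0.038, and its 5 probes by up to 0.22.

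Of 22 measured NF-κB cytokines and enzymes, 3 (Saa3, Il1a and Nos2) were at least 1.5-fold higher on E4 and 0 were lower, against 1.41% and 0.617% of all genes, with a list median of 0.12. Saa3 read 5409 on E4, against 5175 on the activated control and 3106 at the median of the 9 arrays, and Il1a read 11989 on E4, against 11913 and 7211. Against the activated control alone the list median was 0.047. Of 25 interferon response genes and 11 antigen presentation genes, 0 were 1.5-fold different in either direction, with medians of 0.0024 and 0.0067. With 1.41% and 0.617% of all genes beyond this limit, 0 in lists of this size is near that share. The interferon-induced genes Parp9 and Oas3, not on the interferon list, differed by 1.18 and -1.06, with another Oas3 probe at 0.

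In lists of other stress and metabolic programmes, counts at 1.5-fold are again to be read beside 1.41% higher and 0.617% lower among all genes. Among 12 unfolded protein response genes 1 was at least 1.5-fold higher, Herpud1, a component of endoplasmic reticulum degradation, with 2296 on E4, against 938, 1358 and 1827 on the 9 arrays and 1962 on the non-activated control. The median of that list was -0.089, and 3 of its members were below all 9 arrays, against 8.61% of all genes, the chaperone genes Hsp90b1 and Dnajb9 and the endoplasmic reticulum gene Creld2. Of 20 NRF2 targets, 8 heat shock genes, 9 p53 targets, 11 LXR targets and 20 proteasome genes, 0 were 1.5-fold different. The proteasome genes had a median of -0.083, and 5 of the 20 were below all 9 arrays. Of 14 sterol synthesis genes 0 were 1.5-fold different, but all 14 lay below the median of the 9 arrays, where 46.7% of all genes lay, with a list median of -0.19. Of 19 cell cycle genes 0 were 1.5-fold different, with a median of -0.13.

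Among 12 hypoxia and glycolysis genes, Vegfa was at least 1.5-fold higher, with 342 on E4, against 88.3 on the activated control, 183 at the median and 327 on E19 among the 9 arrays, and 338 on the non-activated control. Of 8 glucocorticoid targets, Per1 and Tsc22d3 were at least 1.5-fold higher. Tsc22d3, which encodes the leucine zipper protein GILZ, read 285 on E4, against 119, 167 and 247 on the 9 arrays and 703 on the non-activated control. Of 6 cAMP and CREB targets 1, Per1, was higher. Of 12 immediate early genes, Dusp4 and Egr2 were higher, but 0 genes of that list were above all 9 arrays. Egr2 read 862 on E4, against 847 on the activated control and 1134 on E33. Of 18 lysosome and autophagy genes Gabarapl1 was lower, at -0.61. Of the 25 lists other than the synthetases, 17 held no gene that was 1.5-fold different, and only the ATF4 list held 5 or more. Among all genes 1.41% were higher and 0.617% lower at this limit, so a short list with none is near that share. Lists with few measured genes, such as the 2 AhR targets, could not hold 5.

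**Figure D5:**
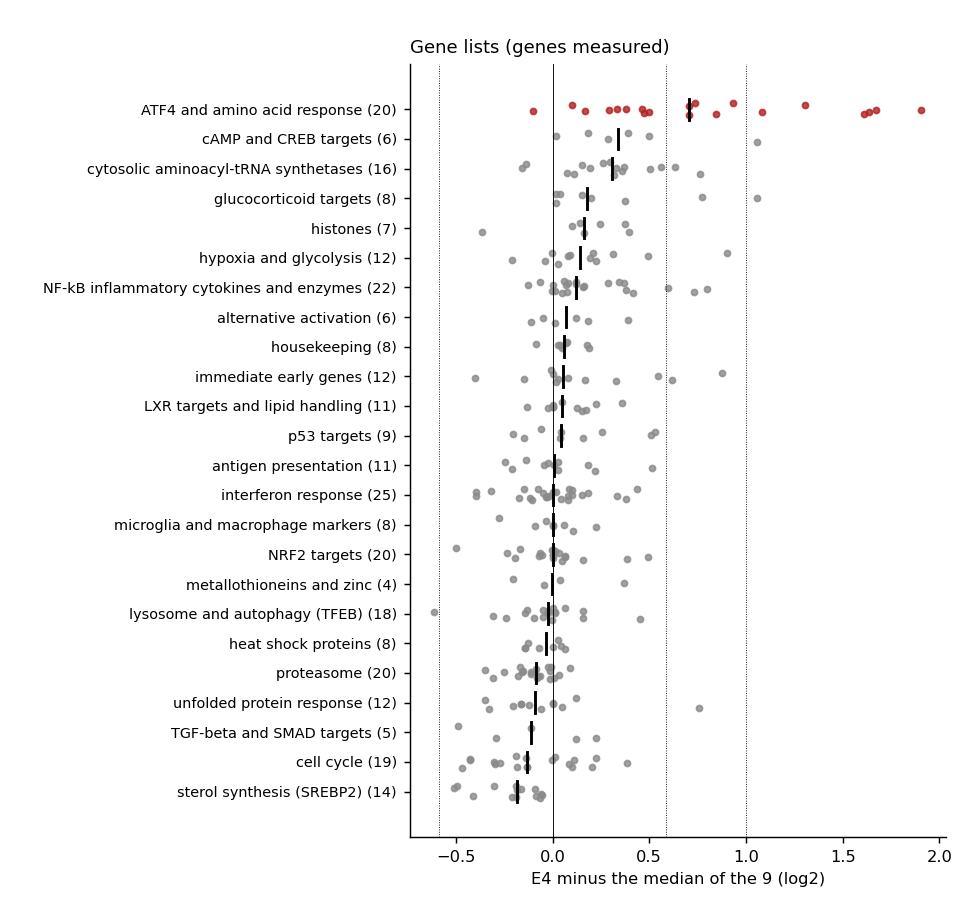
Log2 difference of E4 from the median of the 9 arrays (horizontal axis) for each measured gene (points) of each list with at least 4 measured genes (rows, with their number), and the list median (black tick); dotted lines mark 1.5-fold and 2-fold, and vertical positions within a row carry no value. The ATF4 and amino acid response list (red) has a median of 0.71, and the medians of the inflammatory and interferon lists are 0.12 and 0.0024.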

How the data were processed

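Expression was measured in BV2 cells on Illumina mouse arrays, 1 array per condition, so the number of arrays limits precision. The authors deposited a processed intensity for each probe and a scanner intensity with a detection p-value. Per the submitters' processing notes GenomeStudio 2010.3 was used. How the processed intensities were normalized is stated neither in the labels nor in the file headers. Their ranks matched the scanner intensities within each array, array medians lay at 14.9 to 15.0, about 45.1% to 45.2% of probes held the lowest value of 10.0, and no 2 arrays were identical.

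Processed intensities were raised to 50 and put on a log2 scale. The difference is E4 minus the median of 9 activated arrays, called at 2-fold (1.5-fold for gene lists). No p-value was computed. Members and lists were chosen with earlier results of these data known. GEO's platform annotation, updated through Entrez identifiers to RefSeq GRCm38.p6, named 23978 of 25697 probes with 1 gene, 0 with several and left 1719 unnamed. A gene was read with its brightest probe over the 11 arrays. Of the 22 genes with a probe at least 2-fold higher, 19 were so by the brightest probe. Named genes were the 20 highest and up to 10 lowest probes at least 2-fold different and outside the range of the 9 arrays, list members at 2-fold and 9 readout genes, with at most 2 unnamed probes in each direction.

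Alternatives included scanner intensities after neqc with an offset of 16 (limma 3.58.1, R 4.3.3), other floors, folds and arrays to compare with. The counting was tested on simulated data. Python 3.11.15, numpy 2.4.6 and pandas 2.3.3 were used, with matplotlib 3.10.9. Promoter windows came from RefSeq (GRCm38.p6).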

Additional observations from a re-analysis of the deposited data

How the results depend on the processing

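No paired analysis was possible because no condition had more than 1 array. The 27 higher and 4 lower probes became 7 and 1 with scanner signals quantile-normalized without background correction, 90 and 42 with a floor of 20, 47 and 37 against the activated control alone, 158 and 63 at 1.5-fold, and 8 and 0 at 3-fold. With a floor of 100 or a median of at least 100 (chosen after seeing the data), 17 and 14 probes were higher. The number of probes compared also changed, from 10548 to about 14250 with a floor of 20. It was 8230 with a floor of 100 and 7504 with a median of at least 100. Counts under these settings are therefore not out of the same total. With E29 included 1 was lower. The share of higher probes, 87.1%, was 56.0% against the activated control alone, 68.2% with a floor of 20 and 71.5% at 1.5-fold. Leaving out 1 of the 9 arrays in turn gave 25 to 28 higher and 1 to 5 lower probes, with 1 lower without the activated control, without E5 or without E20, and 2 without E14. It gave 5 to 7 induced, 16 to 20 unclassed and 1 to 3 repressed higher probes, with 1 repressed without the activated control or without E21. For induced, unclassed and repressed higher probes, 7, 17 and 3, a 4-fold class gave 0, 26 and 1, and a floor of 20 gave 16, 63 and 11. A floor of 100 gave 2 induced and 1 repressed, and neqc gave 1 repressed. The shares of all probes compared were not counted for these changed classes, so these counts have no background beside them. The ATF4 list's median was 0.88 against the activated control alone, with 14 genes at least 1.5-fold higher. With 1 array left out the median was 0.68 to 0.74, with 11 genes at least 1.5-fold higher each time. The causes of these shifts were not tested. All 24 named probes of largest difference kept their sign under every alternative run. They were chosen for lying outside the range of the 9 arrays. Alternatives that only changed which of those arrays were compared could therefore not reverse the sign. Low signal limits the 6 higher probes detected on fewer than 5 of the 9 arrays.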

Other observations

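Further genes of amino acid and growth metabolism were at least 1.5-fold higher on E4, chosen here after their values were seen. Bcat1, a cytosolic branched-chain aminotransferase, read 680 on E4, against 256, 361 and 400 (lowest, median and highest) on the 9 activated arrays and 563 on the non-activated control, while its other probes differed less, by 0.26 and 0.36 on the log2 scale. Aldh18a1, the first enzyme of proline synthesis from glutamate, read 1134 on E4, against 506, 619 and 872 on the 9 arrays and 1036 on the non-activated control. Gpt2, a mitochondrial alanine transaminase, read 315 on E4, against 171, 198 and 286 on the 9 arrays and 295 on the non-activated control. Eif2s2, the β subunit of eIF2, read 2634 on E4, against 1564, 1718 and 1871 on the 9 arrays and 2124 on the non-activated control. In these 4 genes the median of the 9 arrays lay below the non-activated control, and E4 lay above both. The arginine transporter gene Slc7a2, which was higher in activated cells, read 2347 on E4, against 1055, 1465 and 1937 on the 9 arrays and 135 on the non-activated control. The ribosome biogenesis gene Tcof1 read 828 on E4, against 391, 442 and 536 on the 9 arrays and 533 on the non-activated control.

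Among genes at least 1.5-fold lower on E4, also chosen after values were seen, were Trim56, Slc11a2 and Mcoln2. Trim56, an antiviral ubiquitin ligase, read 571 on E4, against 737, 927 and 1087 on the 9 arrays and 115 on the non-activated control. Slc11a2, the iron transporter DMT1, read 212 on E4, against 298, 403 and 613 on the 9 arrays and 204 on the non-activated control. Mcoln2, an endolysosomal cation channel, read 648 on E4, against 884, 1195 and 1733 on the 9 arrays and 791 on the non-activated control. Each of these lay below all 9 arrays on E4. At this limit 45 of the 7293 genes measured were lower on E4 (0.617%) and 103 were higher (1.41%).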
